A study of Homo sapiens with 6 samples.

Results

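The BCL2 family decides whether a cell keeps its mitochondria intact or commits to apoptosis, and 10 of its genes were followed here in RNA recovered through its 5′ cap. They are the survival genes BCL2, BCL2L1 and MCL1, the pore-forming effectors BAX and BAK1, and the BH3-only genes BID, BAD, BCL2L11, BBC3 and PMAIP1. Every array probe whose gene name equals one of these symbols was taken, which gave 16 probes for 10 genes among 50599 probes for cell RNA under 36337 gene names. The RNA came from MOLT-4 cells, a human T-cell leukaemia line. Cells were mock-transfected or overexpressed NUDT16, which encodes a decapping enzyme, with 3 arrays in each group and no other treatment or time named in the labels. Total RNA was immunoprecipitated for transcripts with a trimethylguanosine (m3G) or 7-methylguanosine (m7G) cap, and the eluate was labelled with Cy3 and hybridised to a 1-colour Agilent array. The comparison asks which transcripts change in the cap eluate when NUDT16 is supplied. Both groups are the same cell line, how far NUDT16 was raised is not taken up here, and nothing in the labels says that replicates came from separate cultures, so p-values measure the spread between these arrays, which may be technical. No input RNA was analysed here, and fewer expressing cells, less RNA per cell and less capped RNA cannot be told apart.

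The survival proteins hold BAX and BAK1 in check on the outer mitochondrial membrane. BH3-only proteins bind the survival proteins, and some also activate the effectors directly; once active, BAX and BAK1 form pores, cytochrome c leaves the mitochondria and caspases are started. Immature T cells and T-cell leukaemias differ in which survival protein they lean on, and MCL1 and PMAIP1 (NOXA) are textbook cases of short-lived gene products, MCL1 being a target that NOXA binds and helps to remove.

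What the arrays read is a 60-base probe at a fixed place in each transcript, and the places differ widely. The files give the start of each probe in its transcript, from 214 bases for one BCL2L11 probe to 6288 bases for one BCL2 probe, so some probes lie near the cap that was pulled down and others far from it. A stretch of each of 4 probes is shown: the only probe of MCL1 and of PMAIP1, and 1 among the probes of BCL2 and of BCL2L11. These are the deposited sequences, read 5′ to 3′ along the transcript, and coordinates are on hg19. The BCL2 probe is printed whole and lies at chr18:60985401-60985460 on the minus strand. The other stretches are 30 bases each, at chr1:150547639-150547668 on the minus strand for MCL1, chr18:57570714-57570743 on the plus strand for PMAIP1 and chr2:111886382-111886411 on the plus strand for BCL2L11. Capitals mark ATTTA in MCL1, the core of AU-rich elements, and AATAAA in PMAIP1 and BCL2L11, the usual polyadenylation signal.
BCL2 A_33_P3355185: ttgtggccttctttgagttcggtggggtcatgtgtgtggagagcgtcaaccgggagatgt
MCL1 A_24_P336759: cataagccgcttATTTAtatcatgtatctc
PMAIP1 A_33_P3619171: aacattcaatatAATAAAagaacatgggga
BCL2L11 A_33_P3251932: tatggtcattggtgattaAATAAAatgtat
On the transcript strand, AATAAA stood in 2 of 14 tested member probes and in 7.54% of all 17765 tested probes, and ATTTA in 1 of 14 and in 7.24%. On the opposite strand AATAAA stood in 0 and ATTTA in 3 of the 14 member probes, against 3.73% and 8.31% of all tested probes. The motifs do not overlap within the stretches shown, and a match describes letters, not a working site.

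All 6 arrays were usable for these genes except that NUDT16 replicate 2 was dim. Between 39.3% and 52.0% of 58717 spots lay well above background on 5 arrays, against 14.6% on NUDT16 replicate 2, and 14 to 16 of the 16 member probes were well above background on those 5 arrays against 7 on NUDT16 replicate 2. Signals are log2 intensities after subtracting, within each array, the 75th percentile over the 6582 probes well above background on all 6 arrays, so 0 is a bright transcript and levels of different probes are not comparable. On NUDT16 replicate 2 the lowest signal well above background was -3.52 on this scale. A lower value there is only an upper limit on the signal. Such limits are approximate, because an undetected probe can lie above the lowest detected one. On mock replicate 3 the second BAD probe did so, at -7.60 against -7.76. A tested probe was one well above background on all 3 arrays of a group, and 14 of the 16 member probes were. Of 12 T-lineage marker genes, 9 were detected on all 6 arrays, among them CD3D, CD3E, LCK and PTCRA, and 0 at background throughout. HBB, COL1A1, COL1A2, EPCAM, MS4A1, PAX5, MPO and CSF1R, markers of other cells, were at background throughout. The B-lineage gene CD79A and the epithelial gene KRT8 were detected on all 6 arrays and differed by 0.38 and 0.25, and KRT18 was detected on 5; the part of these in the results was not tested.

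**Figure D1:**
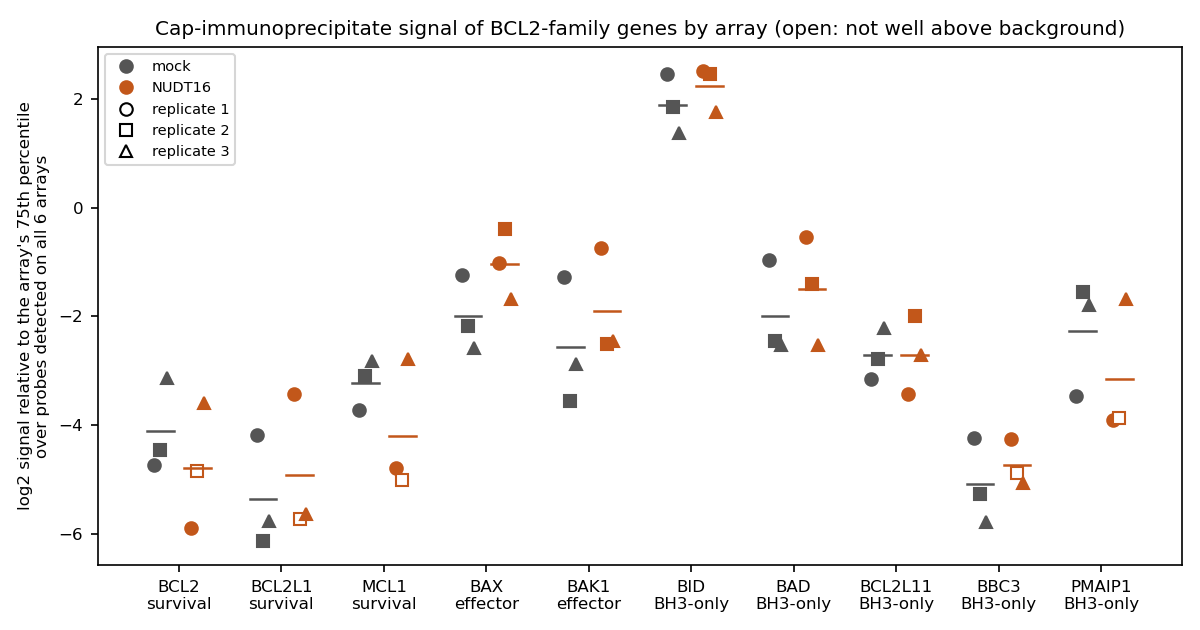
Log2 signal of the leading probe of each gene (vertical axis, relative to the 75th percentile of the array over probes detected on all 6 arrays) on the 3 mock (grey) and 3 NUDT16 (orange) arrays; shapes are replicate numbers, short lines are group means and open symbols are values not well above background. The groups overlap for every gene, and replicates of one number tend to lie together, as for BAK1 replicate 1 at -1.28 and -0.74.

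Among the survival genes, MCL1 and the BCL2 probe at 932 bases read lower in NUDT16 cells on average and BCL2L1 read higher. Their 95% intervals crossed 0 with and without the slide of an array as a block. MCL1, whose protein guards against BAK1 and turns over within a short time, was read by one probe (A_24_P336759, NM_021960). Its signal was -3.73, -3.10 and -2.83 for mock replicates 1, 2 and 3, then -4.79, -5.01 and -2.79 for NUDT16 replicates 1, 2 and 3. The lowest values were NUDT16 replicates 1 and 2, the second not well above background, while NUDT16 replicate 3 was the highest of all 6. The means were -3.22 ± 0.47 (SD, n = 3) and -4.20 ± 1.22 (SD, n = 3), a difference of -0.98 (SE 0.71, 95% interval -2.52 to 0.57, limma adjusted p 0.999). Same-numbered arrays shared a slide, and within the slides MCL1 differed by -1.05, -1.91 and 0.03. With the slide as a block the SE was 0.43 and the 95% interval -2.00 to 0.04 (limma unadjusted p 0.0578, adjusted p 0.467). The -1.91 sets a measured value against a background one. Set against the lowest detected signal of NUDT16 replicate 2, MCL1 was 1.34-fold lower there than on its partner, an approximate limit. MCL1 lay below the median of all tested probes in 7 settings of scaling, background correction and value source, by -1.29 to -0.59 in log2. Settings that only shift whole arrays give the same distance by construction. All 7 keep the filter, which MCL1 passed through the mock arrays, and the background signal on NUDT16 replicate 2. They are therefore not independent support for a lower level.

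BCL2, the founding survival gene of the family, was read by 2 probes that carry different transcript labels. No exon annotation was used, so a probe may read more than 1 BCL2 transcript. A_33_P3355185 (NM_000657) starts 932 bases into its transcript, at the sequence shown above. It gave -4.74, -4.45 and -3.13 in mock and -5.90, -4.85 and -3.60 in NUDT16 cells, with the middle NUDT16 value not well above background. The values differed within the slides by -1.15, -0.40 and -0.47, yet the groups overlapped because replicate 3 was high in both. The -0.40 rests on a background value. The lowest detected signal of that array, -3.52, lies above the -4.45 of its partner, so slide 2 gives no direction. The difference was -0.68 (SE 0.74, 95% interval -2.28 to 0.93, limma adjusted p 0.999), and with the slide as a block the SE was 0.33 and limma's adjusted p 0.467. The second probe, A_23_P352266 (NM_000633, chr18:60790723-60790782, minus strand), starts 6288 bases into its own transcript. It is printed in 10 spots, whose log2 signals differed by an SD of 0.08 to 0.25 within an array. Its values were -5.36, -6.63 and -5.17 in mock and -6.05, -5.66 and -4.95 in NUDT16 cells, so that its slide pairs differed by -0.69, 0.97 and 0.22, the second of these resting on a background value. Its mean difference of 0.17 (SE 0.65, 95% interval -1.24 to 1.58) turned to -0.49 with quantile normalization, -0.51 with a median shift, -0.83 without scaling and -0.41 in the authors' value table. On slides 1 and 3, where both arrays measured both probes, the first differed by -1.15 and -0.47 and the second by -0.69 and 0.22; whether the probes differ from each other was not tested.

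BCL2L1, which encodes the survival protein BCL-XL and by another splice form a shorter killer protein, had 1 probe (A_23_P210886, NM_138578, chr20:30253324-30253383, minus strand). Mock arrays read -4.19, -6.14 and -5.76, and NUDT16 arrays -3.42, -5.73 and -5.63. Replicate 1 was high in both groups, and on NUDT16 replicate 2 none of the 10 spots was well above background (0 of 10). The difference was 0.44 (SE 0.79, 95% interval -1.28 to 2.16, limma adjusted p 0.999), with slide differences of 0.77, 0.42 and 0.13. It changed sign to -0.61 with quantile normalization, -0.24 with a median shift, -0.56 without scaling and -0.20 in the authors' value table.

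The brighter BAX probe and the BAK1 probe read higher in NUDT16 cells on every slide, but the second BAX probe did not. Without a block the 95% intervals of the brighter BAX probe and of BAK1 crossed 0. With the slide as a block that of BAX did not (0.05 to 1.89), and neither probe passed the adjusted threshold. BAX, which moves from the cytosol into the mitochondrial membrane when activated, had the largest difference above 0 among the members. Its probe A_23_P208706 (NM_138764, chr19:49464904-49464963, plus strand), in 10 spots, read -1.24, -2.17 and -2.59 in mock and -1.01, -0.40 and -1.68 in NUDT16 cells, well above background on all 6 arrays. NUDT16 replicates 1 and 2 lay above every mock array, whereas NUDT16 replicate 3 lay below mock replicate 1. The difference was 0.97 (SE 0.64, 95% interval -0.43 to 2.37), which is a 1.96-fold ratio with an interval of 0.741 to 5.16. In limma the unadjusted p was 0.158 and the adjusted p 0.999, and a two-sided exact permutation test had p = 0.2, where 0.1 is the smallest that 3 against 3 arrays allow. Slide differences were 0.22, 1.77 and 0.91. With the slide as a block the unadjusted p was 0.0419 and the adjusted p 0.467 in limma, and BAX was the 1 member probe of 14 with an unadjusted p under 0.05 there, against 9.76% of all tested probes. The sign held in all settings but one, no scaling, which gave -0.03 when all tested probes had a median of -1.10. A second BAX probe, A_33_P3341144 for the beta form (NM_004324, chr19:49464454-49464513), was detected on 2 arrays of each group and was not tested. On the slides where both arrays measured it, the difference was 0.57 and -0.23.

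BAK1, the effector that sits in the mitochondrial membrane from the start, was read by A_23_P145357 (NM_001188, chr6:33540585-33540644, minus strand) on all 6 arrays. It gave -1.28, -3.55 and -2.87 in mock and -0.74, -2.51 and -2.45 in NUDT16 cells. Replicate 1 was the highest in both groups, and the step from replicate 1 to replicate 2 within a group exceeded the step between groups. Slide differences were 0.54, 1.04 and 0.43, and the mean was 0.67 (SE 0.76, 95% interval -0.99 to 2.33, limma adjusted p 0.999). It was 0.09 without NUDT16 replicate 1 and 1.31 without mock replicate 1. With the block the SE was 0.32 and limma's adjusted p 0.467. The sign of BAK1 turned with a median shift (-0.01) and without scaling (-0.33). These settings leave its distance from the median of all tested probes unchanged by construction.

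**Figure D2:**
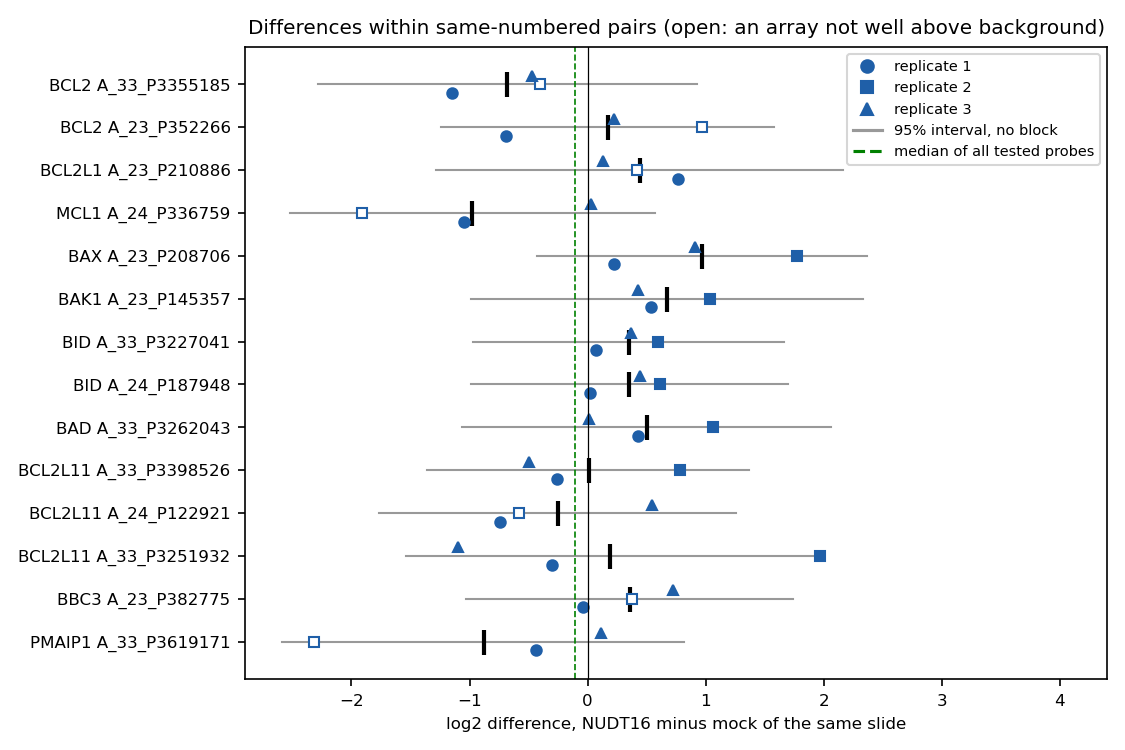
Log2 difference between the NUDT16 and mock array of one slide (horizontal axis) for each of the 14 tested probes (rows); shapes are replicate numbers, open where an array was not well above background, the black bar is the mean, the grey line its 95% interval without a block, and the dashed line the median of all tested probes at -0.11. Every interval crosses 0, and the points of replicate 2 reach farthest in either direction, from -2.32 for PMAIP1, an open symbol, to 1.97 for one BCL2L11 probe.

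The BH3-only genes had no common sign: BID, BAD and BBC3 read higher on average and PMAIP1 lower. The BCL2L11 probes lay between -0.25 and 0.19, and every 95% interval crossed 0 with and without the slide as a block. BID, whose protein is cut by caspase-8 and so carries death-receptor signals to mitochondria, was the most firmly measured. Its probes A_33_P3227041 and A_24_P187948 (NM_197966, chr22:18218265-18218324 and chr22:18218182-18218241, minus strand) lie 83 bases apart and serve as a check on each other. Unscaled intensities of the first were 40700, 9720 and 12300 in mock and 44200, 1220 and 23300 in NUDT16 cells, so this transcript stayed measurable on the dim array. On the relative scale they were 2.45, 1.85 and 1.38 in mock and 2.52, 2.45 and 1.75 in NUDT16 cells. The NUDT16 array was the higher on each slide, by 0.07, 0.60 and 0.37, and the groups overlapped. The second probe gave 0.02, 0.61 and 0.44, within 0.07 of the first on every slide. The mean difference was 0.35 for both (SE 0.60 and 0.62, limma adjusted p 0.999). Without a block the 95% interval of the first, -0.97 to 1.66, spans ratios of 0.51 to 3.16. With the slide as a block the SE was 0.31 for both, and the 95% interval of the first was -0.40 to 1.09. The sign of both BID probes turned with a median shift (-0.33 and -0.32) and without scaling (-0.65 and -0.64).

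BAD, a BH3-only protein silenced by phosphorylation through growth-factor kinases, was read by A_33_P3262043 (NM_004322, chr11:64037483-64037542, minus strand). Mock arrays read -0.97, -2.46 and -2.53, and NUDT16 arrays -0.54, -1.40 and -2.52. The pairs differed by 0.43, 1.06 and 0.01, so slide 3 showed next to no difference. The mean was 0.50 (SE 0.71, 95% interval -1.06 to 2.06, limma adjusted p 0.999), with the sign turned by a median shift (-0.18) and by no scaling (-0.50). A second BAD probe, A_33_P3402076 (ENST00000544271, chr11:64044428-64044487), was well above background on both arrays of replicate 1 and no other, and differed there by 0.04.

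BBC3 (PUMA), whose protein binds all survival proteins, was read by A_23_P382775 (NM_014417, chr19:47724174-47724233, minus strand). It gave -4.23, -5.26 and -5.79 in mock and -4.26, -4.88 and -5.07 in NUDT16 cells, the middle NUDT16 value being at background. On the slides where both arrays measured it, it differed by -0.04 and 0.72. The mean difference of 0.36 (SE 0.63, 95% interval -1.03 to 1.74, limma adjusted p 0.999) turned to -0.32 with a median shift and -0.64 without scaling.

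PMAIP1, the gene of NOXA, read lower on average in NUDT16 cells. Its probe A_33_P3619171 (NM_021127, chr18:57570691-57570750, plus strand) read -3.46, -1.55 and -1.79 in mock and -3.90, -3.87 and -1.69 in NUDT16 cells. Unscaled, mock replicate 2 had an intensity of 919 and its NUDT16 partner 15.2, which was not well above background on an array that was dim as a whole. Set against the lowest detected signal of that array, PMAIP1 was 3.92-fold lower on NUDT16 replicate 2 than on its partner, an approximate limit. Slides 1 and 3 differed by -0.44 and 0.11. The mean difference was -0.88 (SE 0.78, 95% interval -2.59 to 0.82, limma adjusted p 0.999). It kept its sign in all 17 alternatives, and on replicates 1 and 3 alone it was -0.17 and lay 0.05 above the median of all tested probes, so most of its size came from slide 2. MCL1 on those replicates was at -0.51 (limma unadjusted p 0.09, adjusted p 0.359).

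BCL2L11, the gene of BIM, is spliced into many forms and was read by 3 probes, whose mean differences all lay near 0 against their errors. A_33_P3398526 (NM_207002, chr2:111878705-111878764, plus strand), which starts 214 bases into the transcript, read -3.15, -2.78 and -2.22 in mock and -3.42, -2.00 and -2.72 in NUDT16 cells. Its mean difference was 0.01 (SE 0.63, 95% interval -1.36 to 1.37), with slide differences of -0.26, 0.78 and -0.50. A_33_P3251932, which starts at 650 bases and holds the AATAAA shown above, gave -4.74, -4.32 and -2.85 in mock and -5.04, -2.35 and -3.95 in NUDT16 cells, with slide differences of -0.30, 1.97 and -1.10 and a mean of 0.19 (SE 0.79). A_24_P122921 (NM_138621, chr2:111925892-111925951), at 4968 bases, gave -3.67, -5.16 and -4.35 in mock and -4.40, -5.73 and -3.80 in NUDT16 cells, with slide differences of -0.74, -0.58 and 0.55 and a mean of -0.25 (SE 0.70). On slide 3 the 2 probes on NM_207002 were lower in NUDT16 cells and the probe on NM_138621 was higher; whether the probes differ was not tested. On slide 1 all 3 were lower, and on slide 2 the first 2 were higher and well above background, whereas the NUDT16 value of A_24_P122921 was at background. No BCL2L11 probe passed the threshold (0 of 3, limma adjusted p 0.999), and none has a settled direction.

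Over the members as a whole, 0 of 14 tested probes were called at an adjusted p of 0.05 in limma, against 0.00563% of all tested probes (1 of 17765), and 0 had an unadjusted p under 0.05, against 0.045% (8 probes). With the replicate block limma called 0 members as well, again against 0.00563%, and gave member adjusted p values from 0.467 to 0.992. The median SE over the tested member probes was 0.70 without the block and 0.36 with it. Groups without overlap occurred for 0 member probes and 0.591% of all tested probes, and no member reached a 2-fold mean difference (0 of 14), against 8.35%. The mean was higher in NUDT16 cells for 10 of 14 member probes, against 43.2% of all, and the median difference was 0.27 against -0.11. This contrast depends on the processing: with normexp 12 of 14 were higher against 81.4% of all, with medians of 0.48 and 0.47, and with no filter on dim probes 10 of 14 against 77.7%, with medians of 0.27 and 0.73. By slide the member medians were -0.15, 0.60 and 0.18, and those of all tested probes -0.36, 0.09 and -0.06. The NUDT16 array was higher on all 3 slides for 6 member probes (BCL2L1, BAX, BAK1, both BID probes and BAD), against 15.9% of all, and lower on all 3 for 1 (the BCL2 probe at 932 bases), against 27.5%. One direction on all 3 slides thus held for 7 of 14, against 43.4% of all, and 7 of 14 were well above background on all 6 arrays, against 37.1%. Of the 7 probes with one direction, BCL2L1 and BCL2 rested on a background value on slide 2, which gives no measured direction there. Both BID probes count here for one gene, and the members that passed the filter are not all members.

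Where all probes are shifted alike the members keep their place, so their position relative to the median of all tested probes was followed through 7 settings of scaling, background correction and value source. BAX, BAK1, BAD and BBC3 lay above that median in 7 of 7. MCL1, PMAIP1 and the BCL2 probe at 932 bases lay below it in 7 of 7. Settings that shift whole arrays (as reported, the percentile over all spots, a median shift and no scaling) give the same distance by construction. Agreement among them is therefore no added support. MCL1, PMAIP1, BBC3 and this BCL2 probe passed the filter through the mock arrays and hold a background value on NUDT16 replicate 2 in each setting. For BAX the distance ranged from 0.46 with normexp background correction to 1.29 with quantile normalization. BID lay above it in 6 of 7 settings and slightly below with normexp, at -0.17 and -0.18. These are places among the probes of the same arrays and not calls.

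**Figure D3:**
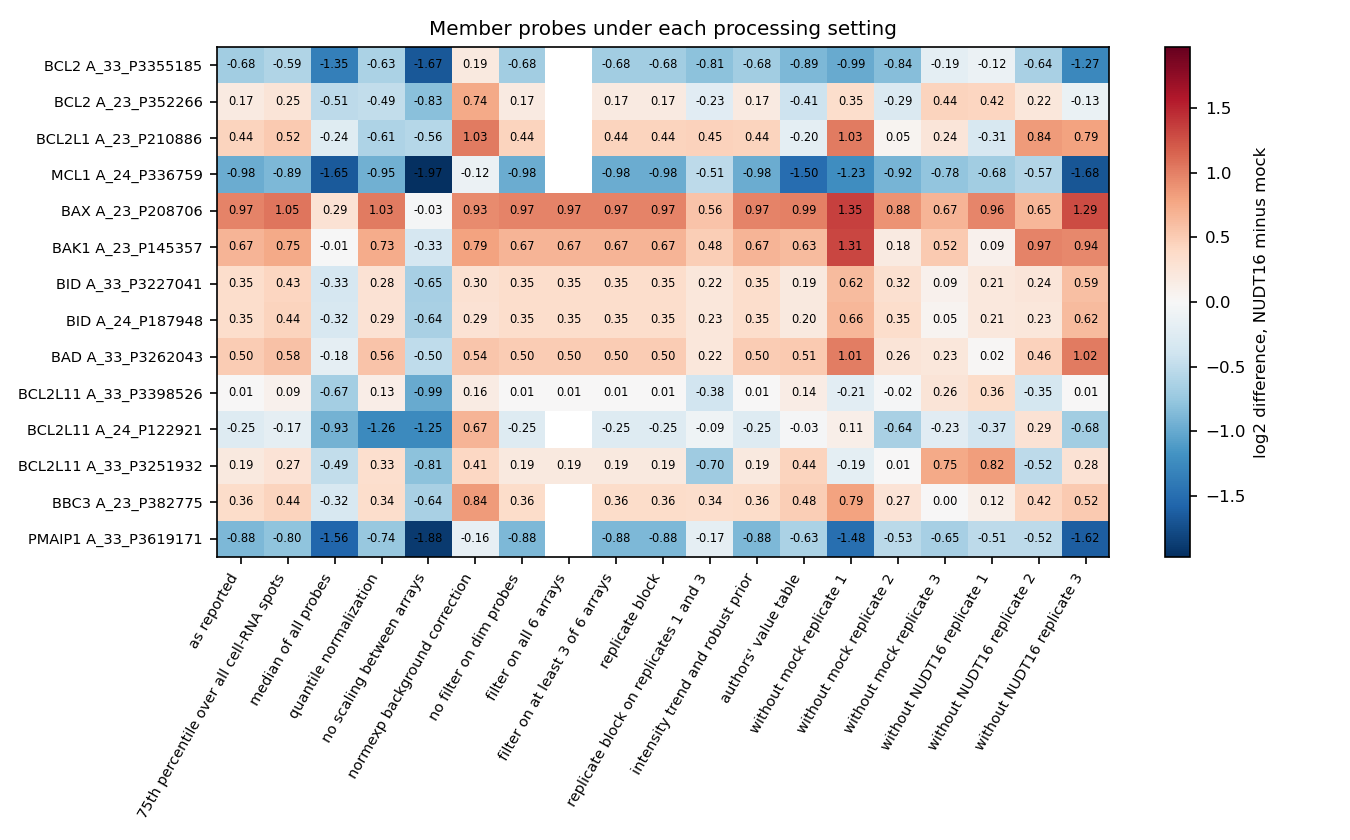
Log2 difference between NUDT16 and mock for each tested member probe (rows) under the setting reported and 18 others (columns), coloured from lower (blue) to higher (red); blank cells are probes that a filter left out. A median shift and no scaling turn nearly all rows blue, MCL1 and PMAIP1 are below 0 in every column that holds them, and BAX is at -0.03 without scaling and above 0 elsewhere.

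Base composition of the probes moved with the differences and is given beside them. Across 17765 tested probes, which share arrays and labelling, the content of G and C correlated with the mean difference (Spearman's rho 0.41), with rho of 0.34 on slide 1, 0.38 on slide 2 and 0.02 on slide 3. Probes with 50% G and C or more had a median difference of 0.34, against -0.31 for those with 36.7% or less. In the richer class lay 6 member probes, of which 5 were higher in NUDT16 cells (BAK1, BAD, BBC3, one of BID and one of BCL2L11), the exception being the BCL2 probe with 55% G and C at -0.68. MCL1 and PMAIP1 have 35% G and C, the same as the second BID probe, which gave slide differences within 0.07 of those of the richer BID probe (53.3%). BAX has 45%, in the class of 45.0% to 48.3%, where the median difference was -0.15. The part of base composition in the members' differences was not tested. Position in the transcript went with the difference less closely (rho -0.09 over 17144 probes that have one; -0.16, -0.08 and 0.12 by slide).

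**Figure D4:**
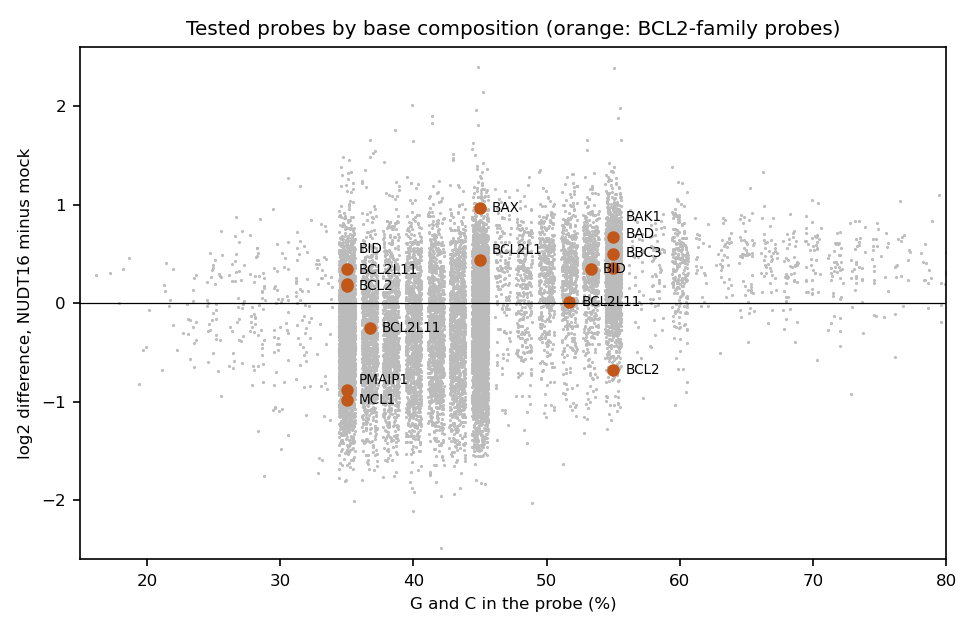
Mean log2 difference between NUDT16 and mock (vertical axis) against the share of G and C in the probe (horizontal axis, spread sideways by a small random step) for all tested probes (grey) and the 14 member probes (orange, labelled by gene); 18 grey probes fall outside the plotted range. The grey cloud lies higher above 50% than below 45%, BAX stands near its upper edge at 45% and BCL2 lies low for 55%.

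With the dim slide left out, the comparison of replicates 1 and 3 with the slide as a block called 613 of 17765 probes in limma (3.45%), and 0 of the 14 members. The smallest adjusted p among members was 0.109, for the BCL2 probe at 932 bases with a difference of -0.81 (unadjusted p 0.00695 in limma). The BCL2L11 probe at 650 bases followed at -0.70 (unadjusted p 0.0201, adjusted p 0.184), against 0.19 over all arrays. An unadjusted p under 0.05 in limma went to 2 of 14 members and, a larger share, to 3210 of 17765 tested probes. BAX was at 0.56 (adjusted p 0.304), BAK1 at 0.48 (adjusted p 0.39) and BID at 0.22 and 0.23. This fit has 4 arrays, which leaves 1 residual degree of freedom for each probe.

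Around the family, 58 genes in 5 lists were read with 1 probe each, and 48 were tested, of which 0 passed the threshold in either direction. Without a block 0 had an unadjusted p under 0.05 in limma. With it 2 of 48 did, CASP8 and YWHAZ, a smaller share than the 9.76% of all tested probes, and both had a limma adjusted p of 0.467. The median difference was -0.24, with 16 values above 0 and 31 below, and values from -1.31 to 0.66. Among 8 tested other BCL2-family genes the 2 brightest in mock cells were BNIP3L, a mitophagy receptor, at -0.59, and BCL2L12 at 0.50, and the list's median was -0.27. Of 12 tested caspase and mitochondrial factors, the brightest were DIABLO, which releases caspases from their inhibitors, at 0.65, and AIFM1 at -0.56. DIABLO differed by -0.28, 2.55 and -0.30 on the slides, so its mean rests on slide 2. The 6 caspase inhibitors had a median of -0.26, with BIRC5 (survivin) at 0.22 and BIRC2 at -0.74. Of 8 death-receptor genes, FADD was at 0.03 and TRADD, another adaptor, at 0.59. Among 14 regulators and partners, ATF4 was at 0.15 and YWHAZ, a 14-3-3 protein of the kind that holds phosphorylated BAD, at -1.30, with slide differences of -0.90, -2.51 and -0.49.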

How the data were processed

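Scanner files of 6 arrays were used. Per the file headers, Agilent Feature Extraction 10.7.3.1 (design 039494) made them. They hold a linear intensity per spot, corrected for background and trend on its own array only, per the file headers. The authors also deposited a table of log2 values, whose making is not given in the sources used here. The submitters' processing notes name Agilent Feature Extraction and limma.

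Control and outlier spots were left out, log2 signals of the spots of a probe were averaged, and the 75th percentile was subtracted within each array, over probes well above background on all 6 arrays, because fewer than 50% of spots were detected on several arrays and the percentile over all spots is a background value on NUDT16 replicate 2. A probe counted as above background where over 50% of its spots did. In all, 13 probes without a usable spot were dropped. Probes above background on all 3 arrays of a group were tested with limma 3.58.1 (R 4.3.3; lmFit, eBayes, two-sided, Benjamini-Hochberg over 17765 probes), without a block.

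Slide, scan and replicate number coincide. Same-numbered arrays deviated together (correlations of their deviations 0.84, 0.39 and 0.77), so the numbers pair them; blocked values are given where they bear on a result. The leading probe of a gene is above background on most arrays, then brightest. All members are named, and from each wider list the called genes or else the 2 brightest in mock arrays; CASP8 and BCL2L10 were singled out after their values were seen. The members, lists and tests were chosen with earlier results of these data known. Of 16 member probes, 15 had an accession in the RefSeq table (GRCh38.p14, used for names), each with the same symbol. No gene annotation of hg19 was used. The procedures were tested on simulated data. The number of arrays limits the precision.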

Additional observations from a re-analysis of the deposited data

Results flagged for a closer look

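One gene outside the tests was set apart by being measured in one group only. BCL2L10, a family member of the survival type with 1 probe (A_23_P163209, NM_020396, chr15:52401867-52401926), was not well above background on any mock array and was so on 2 of 3 NUDT16 arrays. Its intensities were 6.1, 4.84 and 5.11 in mock and 126, 4.18 and 41.9 in NUDT16 cells. Set against the lowest detected signal of the mock partner, it was 4.39-fold higher on slide 1 and 1.3-fold higher on slide 3. These are approximate limits, because an undetected probe can lie above that signal. Across the array 69 of 50586 probes (0.136%) had 0 mock and at least 2 NUDT16 arrays above background. In a limma fit without a filter its difference was 3.39 (SE 0.93, unadjusted p 0.00384, adjusted p 0.918), set largely by surrogate values. It was noticed after its values were seen.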

How the results depend on the processing

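Of 245 values of the 14 member probes under other settings, 207 kept their direction, 38 did not and 0 passed the threshold. A median shift and no scaling move all probes together: the median over all tested probes was -0.11 as reported, -0.78 with a median shift and -1.10 without scaling. With the median shift the values were -0.51 for BCL2 A_23_P352266, -0.24 for BCL2L1, -0.01 for BAK1, -0.33 and -0.32 for BID, -0.18 for BAD, -0.67 and -0.49 for BCL2L11 A_33_P3398526 and A_33_P3251932, and -0.32 for BBC3. Without scaling they were -0.83, -0.56, -0.33, -0.65 and -0.64, -0.50, -0.99 and -0.81, and -0.64 in the same order, and -0.03 for BAX. The member median of 0.27 became -0.41 and -0.73 under these settings. Shifts of whole arrays leave its distance from the median of all probes at 0.37; that distance was 0.01 with normexp, -0.46 with no filter, 0.06 without NUDT16 replicate 1 and 0.12 without mock replicate 3. Quantile normalization (all probes -0.26) gave -0.49 for BCL2 A_23_P352266 and -0.61 for BCL2L1, and the authors' value table (all probes -0.21) -0.41 and -0.20. Normexp (all probes 0.47) gave 0.19 for BCL2 A_33_P3355185 and 0.67 for BCL2L11 A_24_P122921; the cause was not tested. The 75th percentile over all spots moved all probes to -0.02 and turned no member.

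The count of 1 called probe was 0 without scaling, with normexp, with the authors' table, with no filter and when detection on all 6 arrays was required, 0 to 1 on leaving out one array (0 without mock replicate 2), and 613 with the replicate block on replicates 1 and 3. That fit turned BCL2 A_23_P352266 to -0.23 and the BCL2L11 probes A_33_P3398526 and A_33_P3251932 to -0.38 and -0.70. The replicate block on all arrays left 1 called probe and changed no member's call. Leaving out one array turned BCL2 A_23_P352266 (-0.29 to 0.44), BCL2L1 (-0.31 to 1.03, negative without NUDT16 replicate 1) and the BCL2L11 probes A_33_P3398526 (-0.35 to 0.36), A_24_P122921 (-0.68 to 0.29) and A_33_P3251932 (-0.52 to 0.82). Without a turn of sign, it moved BCL2 A_33_P3355185 from -1.27 to -0.12, MCL1 from -1.68 to -0.57, BAX from 0.65 to 1.35, BAK1 from 0.09 to 1.31, the BID probes from 0.09 to 0.62 and from 0.05 to 0.66, BAD from 0.02 to 1.02, BBC3 from 0.00 to 0.79 and PMAIP1 from -1.62 to -0.51. Depth limits the 7 tested probes at background on NUDT16 replicate 2, for which the filter on all 6 arrays gives no value.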
